A study of Mus musculus with 4 samples.

Results

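The 10 genes described here encode the hypoxia-inducible factors (HIF), the enzymes that sense oxygen for them, the recognition subunit of their ubiquitin ligase and 2 of their best-known transcriptional targets. They are Hif1a, Epas1, Hif3a, Hif1an, Egln1, Egln2, Egln3, Vhl, Bnip3 and Ankrd37, which is 10 of the 50600 genes in the deposited tables. They were chosen by family and by measured values, since in 1 of the libraries the level of Hif1a and those of its target genes had moved apart. That contrast, replicate 2 against replicates 1, 3 and 4, is therefore given below for these genes as a description, with no test.

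The RNA came from primary Th17 cells, the interleukin-17-producing class of helper T cell, of the mouse strain C57BL/6NJ. The study holds 4 libraries in 1 group, biological replicates 1 to 4, with no treated or control arm, and the labels link a culture protocol for differentiating CD4 T cells. A time of 72 hr stands in the file headers. The labels call the assay total RNA-seq, while the linked library protocol is named for poly(A)+ RNA. No genetic change, added agent or oxygen level is given in the labels, and age is given as unknown. The libraries come from 4 biosamples under 1 donor identifier, and sex is given as not collected. The sex-linked transcripts did not match a single animal. Xist, the X-inactivation RNA, had 0.755, 0.556, 132 and 132 TPM in replicates 1 to 4, and the Y-linked gene Uty had 14.9, 13.4, 0.0486 and 0.0547 TPM. Replicates 1 and 2 thus stood apart from replicates 3 and 4 in these genes, as they did for the Y-linked Ddx3y, Eif2s3y and Kdm5d; all were looked at after other values were seen. The labels do not say which animals gave which library, so the errors and p-values speak only of these 4 samples. They rest on the spread among the libraries that a single library is set against, shared across genes. For replicate 2 these are replicates 1, 3 and 4.

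A HIF is a pair of proteins, an oxygen-regulated alpha subunit (HIF-1alpha from Hif1a, HIF-2alpha from Epas1, HIF-3alpha from Hif3a) and the stable partner ARNT. When oxygen is plentiful, the prolyl hydroxylases EGLN1, EGLN2 and EGLN3 modify the alpha subunit, the VHL protein binds it and it is degraded, while the asparaginyl hydroxylase FIH (from Hif1an) blocks its contact with coactivators. Alpha subunits are thus controlled largely at the protein level, which RNA counts do not measure. In Th17 cells HIF-1alpha is known for promoting glycolysis and the lineage's own programme.

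Libraries held 33123029 to 37746767 counts, and 19572 to 20355 genes had a count. The Th17 label was checked on 8 markers, all above 1 TPM as a mean of the libraries (TPM is a count divided by gene length and scaled so that every library has the same sum). Their summed level was 1964 TPM in replicate 2 and 6011 to 6745 TPM in the other libraries. Most of that sum was Il17a (505 TPM in replicate 2, 2155 to 2543 elsewhere) and Il17f (578 and 2619 to 2909). Ccr6 (51.5 and 229 to 250) also stood far lower in replicate 2. Il22 (183 and 304 to 385), Il23r (17.7 and 24.9 to 31.3) and Rora (19.2 and 30.1 to 31.6) stood lower by less. Cd4 stood at 486 to 516 TPM and Cd3e at 117 to 125 TPM in all 4. Marker lists of other cell types summed to 0.129 to 0.787 TPM (endothelial), 6.96 to 11.1 (stromal), 1.67 to 2.05 (epithelial), 20.1 to 23.3 (myeloid), 61.4 to 71.8 (B cell) and 0.249 to 1.41 TPM (erythroid). The highest member of these lists was Ighm at 64.2 TPM. Replicate 2 held the highest sum of the endothelial, stromal, myeloid and erythroid lists, but the genes of a list did not all move together. The stromal gene Dcn had 9.35 TPM there against 3.77 to 4.11, while Pdgfrb had 0.941 against 2.00 to 2.82. The myeloid gene Cd68 had 12.1 TPM against 7.63 to 9.16, while Adgre1 had 5.73 against 8.42 to 8.90. Most of the endothelial sum there was Tek (0.723 TPM). These genes were named after their values were seen. The endothelial genes Cdh5, Emcn and Robo4, the stromal gene Col3a1, the epithelial genes Krt8 and Cdh1 and the myeloid gene Lyz2 had 0 counts in every library. The part of the lower Th17 markers and of these lists in the results below was not tested. In such bulk samples, fewer cells of a type and less RNA per cell cannot be told apart.

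HIF bound to DNA recognises a short core, written here as ACGTG or GCGTG, and Bnip3, Ankrd37 and Egln3 are textbook targets. RefSeq promoter windows (250 bases before to 50 after the start RefSeq gives, GRCm38.p6, which shares mm10 coordinates) were found for 9 of the 10 genes, and Epas1 had none. That start lies 6492 bases inside the gene span of the count tables for Hif1a and 5857 bases inside it for Ankrd37, and 1074 bases inside for the second window of Egln2, so these windows belong to a later start. For the other windows it lies within 70 bases of the span's end. Both cores were searched on both strands. A CACGTG reads as a match on each strand and counts as 2, and neighbouring matches can overlap. Of all 32851 windows in the table, 43.8% held at least 1 match and 20.6% at least 2. Of the 9 genes, 7 had at least 1 match and 6 at least 2, each gene taken by its window with the most matches. The 9 genes have 10 windows, so this count per gene and that share per window are in unlike units. The windows of the 3 targets that stood lowest in replicate 2, of Hif1a, which stood highest there, and of Egln2, which has the most matches and hardly moved, are printed so that they can be read beside the values. Each runs 5′ to 3′ on the gene's strand, with matches in capitals.

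The windows lie at chr7:138909457-138909756 on the minus strand (Bnip3), chr8:45999801-46000100 minus (Ankrd37), chr12:54203825-54204124 minus (Egln3), chr12:73907617-73907916 plus (Hif1a) and chr7:27166753-27167052 minus (Egln2, the first of its 2 windows).
Bnip3: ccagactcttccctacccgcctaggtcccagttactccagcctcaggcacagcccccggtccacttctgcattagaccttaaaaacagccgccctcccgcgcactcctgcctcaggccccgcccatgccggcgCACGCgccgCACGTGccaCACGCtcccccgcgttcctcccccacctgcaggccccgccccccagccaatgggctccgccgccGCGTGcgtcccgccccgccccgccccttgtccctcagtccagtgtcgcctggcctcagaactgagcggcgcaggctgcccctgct
Ankrd37: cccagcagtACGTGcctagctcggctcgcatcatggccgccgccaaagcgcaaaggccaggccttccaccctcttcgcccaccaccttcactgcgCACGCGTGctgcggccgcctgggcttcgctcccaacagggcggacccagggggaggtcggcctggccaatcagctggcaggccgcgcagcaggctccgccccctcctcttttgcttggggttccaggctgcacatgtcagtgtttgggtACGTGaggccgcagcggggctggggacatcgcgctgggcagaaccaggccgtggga
Egln3: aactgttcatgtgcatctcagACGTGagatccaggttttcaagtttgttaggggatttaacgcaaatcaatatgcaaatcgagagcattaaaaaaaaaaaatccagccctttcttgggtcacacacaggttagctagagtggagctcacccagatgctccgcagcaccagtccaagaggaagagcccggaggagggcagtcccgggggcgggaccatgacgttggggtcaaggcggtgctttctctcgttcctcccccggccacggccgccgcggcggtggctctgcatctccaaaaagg
Hif1a: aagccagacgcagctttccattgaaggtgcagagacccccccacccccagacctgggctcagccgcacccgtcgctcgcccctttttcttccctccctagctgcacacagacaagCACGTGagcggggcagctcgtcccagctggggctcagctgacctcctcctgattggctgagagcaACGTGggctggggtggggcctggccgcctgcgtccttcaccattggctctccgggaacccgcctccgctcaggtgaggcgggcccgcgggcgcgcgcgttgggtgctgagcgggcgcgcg
Egln2: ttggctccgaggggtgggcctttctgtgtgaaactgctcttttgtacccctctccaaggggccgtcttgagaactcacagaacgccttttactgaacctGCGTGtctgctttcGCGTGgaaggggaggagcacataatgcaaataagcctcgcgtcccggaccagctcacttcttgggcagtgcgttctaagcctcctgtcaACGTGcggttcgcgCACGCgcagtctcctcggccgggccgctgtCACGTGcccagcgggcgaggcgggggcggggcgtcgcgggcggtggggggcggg

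Counted from the RefSeq start, the matches of Bnip3 begin at bases −117, −108, −107, −99 and −35, and those of Ankrd37 at −241, −155, −152 and −6. Egln3 has a single match, at −229. Hif1a has 3, at −135, −134 and −70, and the first window of Egln2 has 6, between −151 and −3. Egln1 and Hif3a have 2 matches each (Egln1 at −126 and −68), and Hif1an and Vhl have none. The number of matches did not order the genes by their change in replicate 2: Egln3, with 1 match, stood furthest from the other libraries and Egln2, with 6, stood near them. A match is a run of letters and not a shown binding site, and a window without one says nothing of the factor.

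The alpha subunit genes were expressed at very unequal levels. Hif1a (ENSMUSG00000021109.13, mm10 chromosome 12, bases 73901375 to 73947530, plus strand, protein-coding) had 295, 423, 290 and 295 TPM in replicates 1 to 4, from 17255 to 28535 counts. Replicate 2 stood above a tight group of the other 3, which lay at 293 ± 2.89 TPM (mean ± SD, n = 3). The fitted log2 change of replicate 2 against the others was 0.59 ± 0.04 (SE), a 1.5-fold higher level. As a mean over the 4 libraries, Hif1a lay above 97.9% of the genes with a count.

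Epas1, whose product is best known from endothelial and other non-lymphoid cells, had 2.91, 2.24, 2.10 and 2.44 TPM in replicates 1 to 4, from 117 to 153 counts. Hif3a, whose products include forms that restrain the other alpha subunits, had 2.68, 2.29, 3.63 and 3.94 TPM, from 176 to 296 counts. Epas1 showed no order that set replicate 2 apart, and for Hif3a replicates 1 and 2, the pair with Y-linked transcripts, were the low pair; the part of that split in Hif3a was not tested. Both genes were above 1 TPM in every library, as were all 10. Within a library Hif1a transcripts outnumbered those of Epas1 by 102 to 189 times and those of Hif3a by 74.8 to 184 times. The log2 change in replicate 2 was −0.09 ± 0.22 (SE) for Epas1, which became 0.04 without replicate 1, and −0.52 ± 0.20 for Hif3a. Their few counts leave wide errors.

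**Figure D1:**
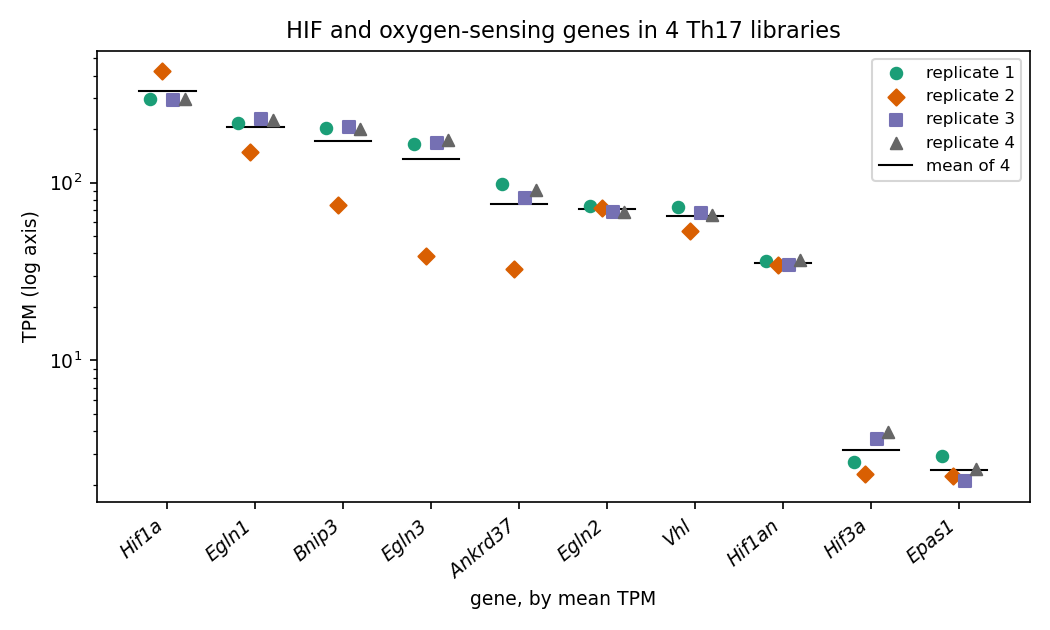
Level of each of the 10 genes in each of the 4 Th17 libraries, as TPM on a log axis, with genes ordered by mean TPM; symbols mark the replicates and the bar is the mean of 4. Replicate 2 (diamonds) lies above the others for Hif1a at 423 TPM and below them for Egln1, Bnip3, Egln3, Ankrd37, Vhl and Hif3a. It lies among them for Egln2, Hif1an and Epas1.

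The 3 prolyl hydroxylase genes differed both in level and in how far they moved. Egln1 (ENSMUSG00000031987.6, chromosome 8, bases 124908587 to 124949324), the main oxygen sensor of the family, had 217, 148, 229 and 226 TPM in replicates 1 to 4. Egln3 (ENSMUSG00000035105.5, chromosome 12, bases 54178981 to 54203860), itself a strongly HIF-induced gene, had 165, 38.7, 166 and 175 TPM. Egln2 (ENSMUSG00000058709.11, chromosome 7, bases 27158658 to 27166802), which is not known as a HIF target, had 73.6, 72.4, 68.5 and 68.4 TPM. Replicate 2 was the lowest library for Egln1 and Egln3, with no overlap, while for Egln2 it lay within the range of the others.

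In replicate 2 the log2 change was −2.06 ± 0.06 (SE) for Egln3, a level 4.18-fold lower than in the other libraries. It was −0.54 ± 0.05 for Egln1, 1.45-fold lower, and 0.11 ± 0.07 for Egln2. The family thus had another make-up in that library. Egln3 supplied 36.4% ± 0.710 of the summed prolyl hydroxylase transcripts in replicates 1, 3 and 4 (mean ± SD, n = 3) and 14.9% in replicate 2. The share of Egln2 was 15.2% ± 0.847 in those 3 libraries and 28.0% in replicate 2, and that of Egln1 48.4% ± 0.837 against 57.1%. Their sum was 463 ± 6.43 TPM in the 3 libraries and 259 TPM in replicate 2.

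**Figure D2:**
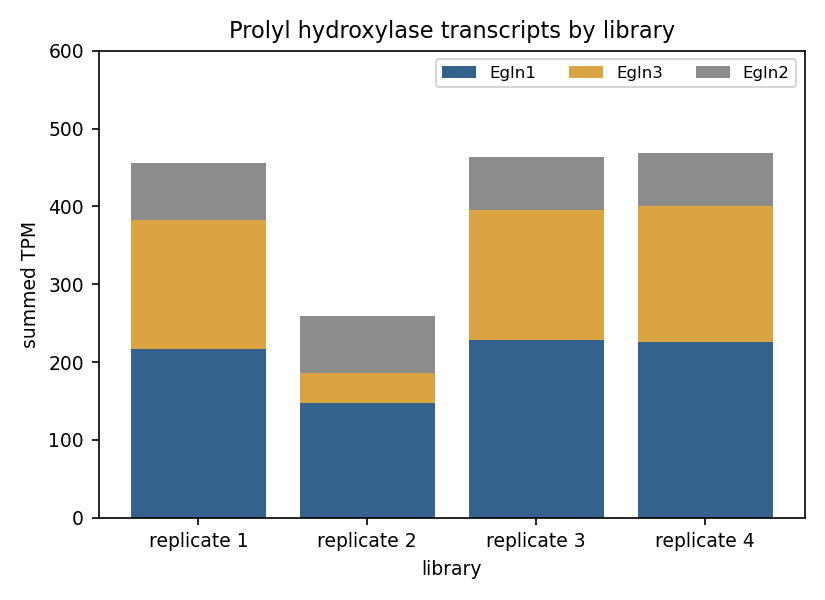
Summed TPM of the prolyl hydroxylase genes Egln1, Egln3 and Egln2 in each library, stacked from 0. The bar of replicate 2 reaches 259 TPM against 456 to 469 in the others, with most of the difference in the Egln3 part.

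The other genes of the oxygen-sensing arm differed less than Egln1 and Egln3, though Vhl differed more than Egln2. Hif1an, the FIH gene, had 36.1, 34.6, 34.6 and 36.7 TPM in replicates 1 to 4, the narrowest relative spread of the 10 genes (35.5 ± 1.09 TPM, SD, n = 4), with a log2 change of 0.01 ± 0.06 (SE) in replicate 2. Vhl, the substrate receptor of the ligase, had 72.5, 53.6, 67.8 and 65.4 TPM and a log2 change of −0.29 ± 0.08. Replicate 2 was the lowest library for Vhl, and for Hif1an it lay among the others.

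Both HIF target genes stood far lower in replicate 2. Bnip3 (ENSMUSG00000078566.8, chromosome 7, bases 138890836 to 138909519), a mitophagy receptor of the BCL2 family, had 203, 75.1, 205 and 200 TPM in replicates 1 to 4. Outside replicate 2 it lay at 203 ± 2.41 TPM (SD, n = 3). Ankrd37 (ENSMUSG00000050914.16, chromosome 8, bases 45996902 to 46005707), a small ankyrin repeat protein, had 97.7, 32.7, 81.5 and 91.1 TPM. The log2 change in replicate 2 was −1.37 ± 0.05 (SE) for Bnip3, 2.59-fold lower, and −1.40 ± 0.11 for Ankrd37, 2.64-fold lower. Neither gene's range in replicates 1, 3 and 4 came near its value in replicate 2.

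The divergence between Hif1a and its targets can be read within a library, where scaling between libraries cancels. The TPM ratio of Hif1a to Egln3 was 1.74 ± 0.05 in replicates 1, 3 and 4 (SD, n = 3) and 10.9 in replicate 2. For Bnip3 the ratio was 1.45 ± 0.03 against 5.63, and for Ankrd37 3.27 ± 0.27 against 12.9. The ratio of Bnip3 to Ankrd37 differed by less than its spread, at 2.26 ± 0.22 against 2.29. Egln3 moved further than Bnip3, whose ratio to it was 1.20 ± 0.05 in the 3 libraries and 1.94 in replicate 2. Against replicate 1 alone, the library with the same sex-linked pattern, the level in replicate 2 was 1.43 times as high for Hif1a, 4.26-fold lower for Egln3, 2.71-fold lower for Bnip3 and 2.98-fold lower for Ankrd37. These values describe the contrast that chose the genes.

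Ordered by mean TPM, the genes ran Hif1a (326), Egln1 (205), Bnip3 (171), Egln3 (136), Ankrd37 (75.8), Egln2 (70.7), Vhl (64.8), Hif1an (35.5), Hif3a (3.13) and Epas1 (2.42). Hif1a lay clear of Egln1, Vhl of Hif1an and Hif1an of Hif3a, with no overlap between their libraries. The neighbours from Egln1 down to Vhl overlapped in range, as did Hif3a and Epas1. Even so, 4 pairs of overlapping neighbours kept their order in 4 of 4 libraries: Egln1 over Bnip3, Bnip3 over Egln3, Egln3 over Ankrd37, and Egln2 over Vhl. Ankrd37 over Egln2 and Hif3a over Epas1 held in 3 of 4.

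By edgeR's quasi-likelihood test with Benjamini-Hochberg adjustment over all genes, 22.5% of 17337 genes were called in replicate 2 against the others. This contrast chose the 10 members, so no count of them is set beside that share.

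The contrast that chose the genes singled out none of replicates 1, 3 and 4, and each of these was tested against the other 2. Their variation is not free of the choice, since genes that clearly moved apart in replicate 2 tend to vary little among these libraries. All 10 genes passed the filter on low counts, and 0 of 10 were called in each of the 3 comparisons by edgeR's quasi-likelihood test, and 0 by DESeq2. The background was low as well. Of 16610 genes tested, 0.409% were called in replicate 1, 0.65% in replicate 3 and 0.0542% in replicate 4, so that a share of 0 among 10 genes is near the background. The log2 changes of the members lay between −0.49 and 0.37 in replicate 1, −0.34 and 0.14 in replicate 3, and −0.12 and 0.30 in replicate 4. Each comparison sets 1 library against 2, and the 3 comparisons share libraries. In the comparison of replicate 1, the library and the sex-linked pattern cannot be told apart.

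The sizes were small for the abundant genes. Hif1a had log2 changes of 0.02 ± 0.05, −0.02 ± 0.05 and −0.01 ± 0.05 (SE) in replicates 1, 3 and 4, and Bnip3 0.02 ± 0.06, 0.03 ± 0.05 and −0.04 ± 0.05. Egln3 had −0.04 ± 0.06, −0.02 ± 0.05 and 0.06 ± 0.05. Ankrd37 varied more, at 0.19 ± 0.08, −0.20 ± 0.09 and 0.01 ± 0.10. Hif3a had −0.49 ± 0.18, 0.14 ± 0.19 and 0.30 ± 0.18, with the lowest adjusted p of any member, 0.389 in replicate 1 (edgeR). The changes of Egln3, Bnip3 and Ankrd37 in replicate 2 were larger than any of the members' changes among the other 3 libraries. That contrast chose the genes, so the difference in size is a description and no test.

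**Figure D3:**
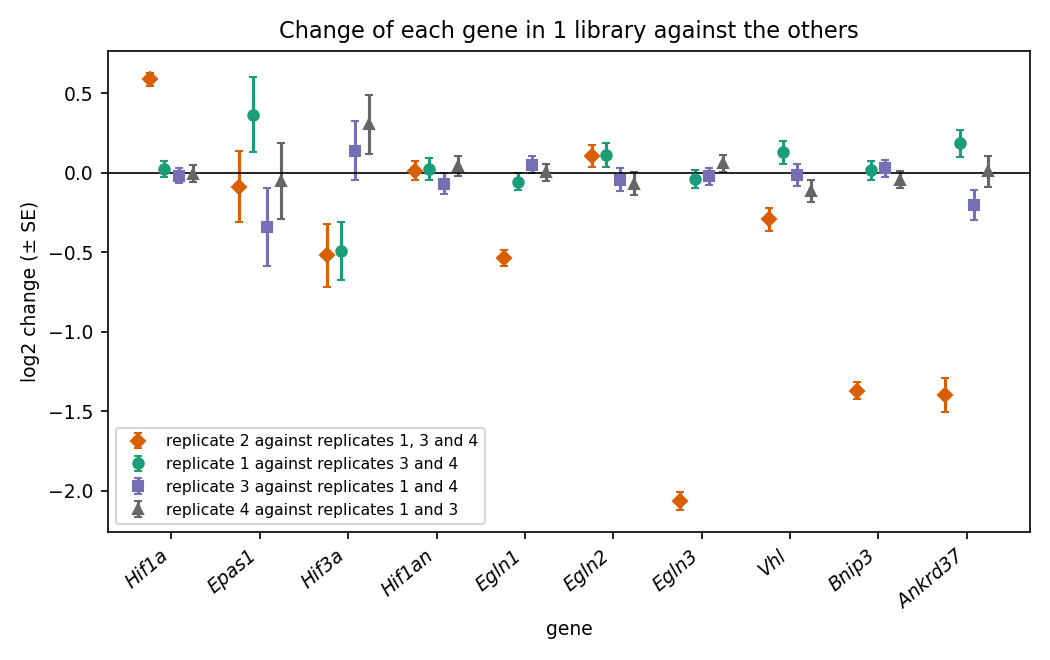
Fitted log2 change (± SE) of each gene in 1 library against the others; replicate 2 was set against 3 libraries, and replicates 1, 3 and 4 each against the other 2 of these. Only replicate 2 has values beyond −1, for Egln3 (−2.06), Ankrd37 (−1.40) and Bnip3 (−1.37).

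Counts were made by strand, so antisense genes are separate rows. Gm15283, annotated antisense to Hif1a with 330 bases of shared exon, had 16, 4, 56 and 34 counts in replicates 1 to 4. Replicate 2 thus had the fewest antisense counts, at a log2 change of Gm15283 of −3.15 ± 0.79 (SE), and the most Hif1a counts. Without replicate 3 the log2 change of Gm15283 was −2.65. Replicates 1 and 2, the pair with Y-linked transcripts, were its low pair. In replicates 1, 3 and 4 its counts varied while Hif1a stayed at 295, 290 and 295 TPM. A link between these genes was not tested. Gm45507, antisense to Bnip3, had 14 counts in replicate 3 and 0 in the others. On the opposite strand Ankrd37 shares 349 bases of exon with Lrp2bp, which had 11, 1, 12 and 2 counts, and 57 bases with Ufsp2, a protease gene of the UFM1 pathway. Ufsp2 had 58.6, 44.0, 58.7 and 56.3 TPM and a log2 change of −0.33 ± 0.06 (edgeR adjusted p = 0.000318), well short of the −1.40 of Ankrd37. Bnip3l, the closest relative of Bnip3 and also a mitophagy receptor, had 156, 86.7, 154 and 155 TPM and a log2 change of −0.78 ± 0.05 (edgeR adjusted p = 2.83e-10). These 5 genes were named for their position or kinship after their values were seen.

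The wider pathway was read from 5 lists that leave out the 10 members, in replicate 2 against the other libraries. Over all genes 11.7% were called higher and 10.9% lower, with a median log2 change of −0.01. The lists were written with earlier results of these data known, so their counts are descriptions.

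Among the HIF partners and coactivators 1 of 8 genes was higher, 3 were lower and 4 had no call, with a median of −0.11. Arnt, the shared partner of the alpha subunits, had 35.5, 33.1, 33.8 and 36.4 TPM and a log2 change of −0.03 ± 0.05 (SE), and the coactivator gene Ep300 had 42.7 ± 1.92 TPM (SD, n = 4) and −0.04. Cited2, which competes with HIF-1alpha for the coactivators and is itself hypoxia-induced, fell by 0.38 on the log2 scale, from 157 ± 5.93 TPM in the 3 libraries (SD, n = 3) to 115 TPM. Arntl, a clock gene of the same protein family, and Ncoa1 also fell, by 0.50 and 0.22. The gene that rose was Arnt2, a partner gene known from neurons, with 1.62 TPM in replicate 2 against 0.0656 to 0.105 TPM (log2 change 4.34 ± 0.39, edgeR adjusted p = 3.85e-08). It was named after its values were seen.

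In the list of the VHL ligase and HIF turnover, 6 of 15 genes were higher, 2 lower and 7 had no call, with a median of 0.04 and no change beyond 0.42. Elob and Eloc, the elongins that bind VHL, rose by log2 changes of 0.24 ± 0.05 and 0.21 (SE), and the deubiquitinase gene Usp20 by 0.42 ± 0.10. Cul2, the scaffold of the ligase, and Wsb1, a ligase subunit that targets VHL, fell by 0.25 and 0.28. Rack1, which promotes oxygen-independent degradation of HIF-1alpha, rose by 0.16, while the chaperone genes Hsp90ab1 and Hsp90aa1 had 0.04 and −0.10 with no call. Elob stood at 798 ± 52.5 and Cul2 at 113 ± 12.1 TPM (SD, n = 4).

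Of the other oxygen-dependent dioxygenases 5 of 14 were lower, 0 higher and 9 had no call, with a median of −0.39. P4ha1 and P4ha2, collagen prolyl hydroxylase genes that also stand in the target list, fell by 0.44 and 1.19. The histone demethylase genes Kdm6b and Kdm4b fell by 0.67 and 0.50, and Jmjd6 by 0.40. Kdm5c, an X-linked demethylase gene, had 97.8, 94.5, 138 and 149 TPM in replicates 1 to 4, so that replicate 1 was low along with replicate 2. Kdm6a, a second X-linked demethylase gene of the list, had 25.96, 25.75, 49.71 and 50.64 TPM and no call, and was named after its values were seen. Both genes thus divided the libraries as Xist did. Both also enter the list's median of −0.39, with log2 changes of −0.65 for Kdm6a and −0.38 for Kdm5c, so that median partly follows this split. Kdm5c had no call (log2 change −0.38, edgeR adjusted p = 0.607) but was called lower without replicate 1 (−0.54, edgeR adjusted p = 6.58e-22).

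The target genes showed the most lower calls. In glucose uptake and glycolysis 19 of 21 genes were lower, 1 was higher and 1 had no call, with a median of −0.42. The glucose transporter genes Slc2a1 and Slc2a3 fell by 0.84 and 0.98, with 195 against 364 ± 9.47 TPM and 20.6 against 42.6 ± 3.03 TPM (SD, n = 3), and the aldolase gene Aldoc by 1.11. The most abundant enzymes, Ldha, Pkm and Gapdh, fell by 0.25, 0.30 and 0.28. Eno2, an enolase gene typical of neurons, rose by 0.43 ± 0.10 (SE), from 15.6 ± 1.27 to 20.1 TPM. Pfkfb4, the gene with no call, had 7.91 ± 1.02 TPM (SD, n = 4) and was named after its values were seen.

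Among other hypoxia targets 23 of 36 tested genes were lower, 3 higher and 10 had no call, with a median of −0.53; of the 38 listed, Ero1a was not matched under that name, its older name Ero1l was, and Epo had too few counts to test. With a mean of 5 TPM or more, the genes that fell most were the chemokine receptor gene Cxcr4, at a log2 change of −2.5, the inducible nitric oxide synthase gene Nos2, at −1.54, and P4ha2. Cxcr4 stood at 9.95 TPM in replicate 2 and at 57.1 to 62.2 TPM elsewhere. Of the most abundant, Fam162a and Tfrc fell by 0.27 and 0.24, while Mif had −0.13 with no call. Among the genes that rose were the growth factor gene Pdgfb, by 0.88, and the transcription factor gene Bhlhe40, by 0.14. Pdgfb had 901 TPM in replicate 2 against 482 to 528 TPM. Most genes of both target lists, not all, were thus called in the direction in which Egln3, Bnip3 and Ankrd37 stood, and Hif1a stood in the other.

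**Figure D4:**
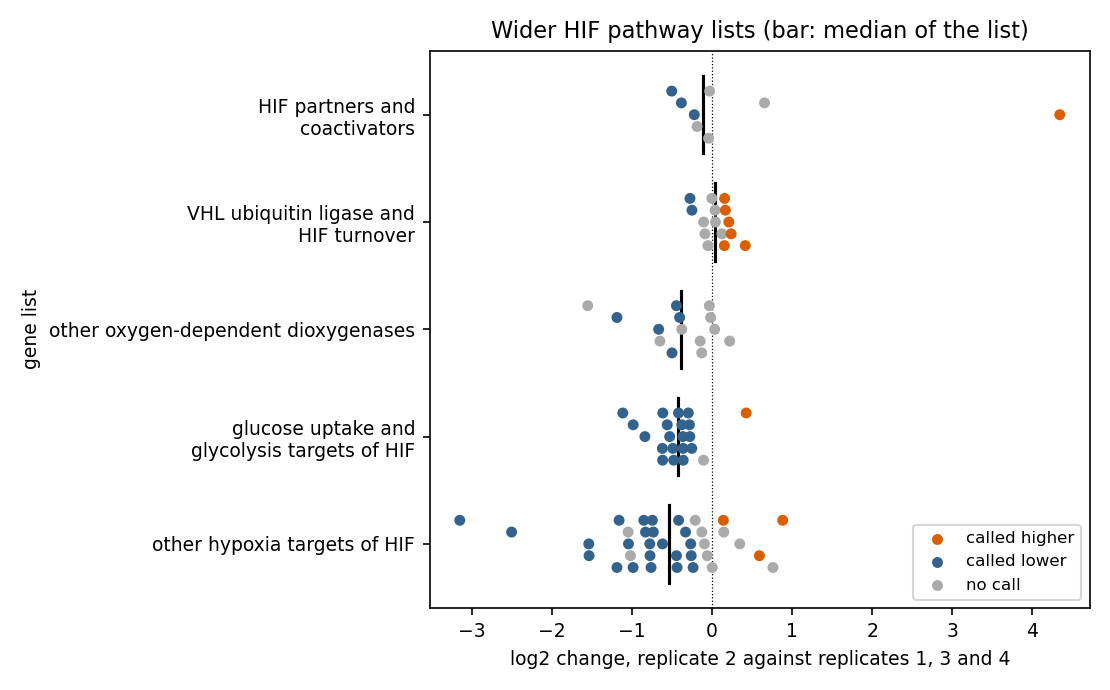
Log2 change of each tested gene of the 5 wider lists in replicate 2 against replicates 1, 3 and 4, members left out; colours give the edgeR call and the bar is the list's median. The medians lie at −0.42 for glycolysis and −0.53 for other hypoxia targets, and at 0.04 for the VHL ligase and HIF turnover.

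Last, genes with the most similar course over the 4 libraries were sought among 9512 other protein-coding genes of at least 5 TPM on average. Likeness was the root mean square difference of centred log2(TPM + 0.1) values, over 4 libraries. Nearest to Hif1a were Sytl3 (0.0109), Traf1 (0.0116), Zfp365 (0.0123), Ei24 (0.0129) and Glipr1 (0.0132). Traf1, for example, had 143, 204, 138 and 141 TPM. Nearest to Bnip3 were Il18r1 (0.0116), Arrb1 (0.0166), Mgarp (0.0232), Dclk1 (0.0344) and Kifc3 (0.0345), with Il18r1 at 18.6, 6.96, 19.0 and 18.5 TPM. With only 4 libraries, such a course is little more than the value of replicate 2 against the rest.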

How the data were processed

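RNA from 4 Th17 libraries was sequenced. Each library has 1 deposited table of raw gene counts with summed exon lengths, made by featureCounts 1.4.6 (patch 4) on read pairs, reverse-stranded (strand option 2), with GENCODE M13, per the file headers; the build is mm10 per the labels. No multi-mapping option stands in the command they record. For the aligner, a version is not given in the sources used here. Symbols came from GENCODE M21 (50376 of 50600 identifiers matched).

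TPM was computed as count over length. Counts were tested with edgeR 4.0.16 (R 4.3.3), TMM-normalized, on genes with at least 10 summed counts, with Benjamini-Hochberg adjustment over all genes tested and a threshold of 0.05; DESeq2 1.42.0 was an alternative. A test of 1 library against others assumes that it varies like them. Each SE was taken as the size of the log2 change divided by the root of its F statistic. The fit was tested on simulated data. Promoter sequences are RefSeq's, and no protein sequences were used here.

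The members and lists were chosen with earlier results of these data known. The text names all members and, of each wider list, the 3 genes of highest mean TPM and the 3 largest rises and falls past the test at a mean of at least 5 TPM. Of the marker lists it names the highest gene, those at 0 counts, and all 8 Th17 markers. Exceptions are marked where they occur, and 1 gene that the rule names is not reported here.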

Additional observations from a re-analysis of the deposited data

Results flagged for a closer look

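Levels of the 10 members and of the 34 named list genes, 44 in all, were checked for a library far from the other 3, by the gap to the nearest library over the whole range (Dixon's ratio, at its 95% critical value for 4 libraries). Chance flags about 1 in 20 groups that were not chosen by their values. These were: the members were chosen on replicate 2, and many of the list genes were named for their change there, so the count below describes that choice and is no test. The ratio passed for 13 genes, and the library that stood apart was replicate 2 each time. Among the members it was highest there for Hif1a (0.96) and lowest for Bnip3 (0.964), Egln3 (0.929) and Egln1 (0.863). Ankrd37 did not pass, as its other 3 libraries were spread more widely.

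Of the list genes, Pdgfb was highest in replicate 2 (0.891). Lowest there were Cxcr4 (0.901), P4ha1 (0.899), Slc2a1 (0.897), P4ha2 (0.87), Fam162a (0.866), Wsb1 (0.864), Aldoc (0.864) and Ldha (0.858). Why replicate 2 stood apart was not tested.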

How the results depend on the processing

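In replicate 2 the log2 changes of the 10 members stayed within 1 SE of the reported ones in all 70 alternatives (DESeq2, its size factors, no filter, a filter of 100 counts, and without replicate 1, 3 or 4). The counts called per list stayed within 1.5 times, except that genes called higher among the other dioxygenases ranged from 0 to 1 with a replicate left out. Among named list genes, Ncoa1 lost its call by DESeq2 (−0.22) and without replicate 4 (−0.17); Hsp90aa1 gained one with a filter of 100 counts, by DESeq2 and without replicate 4 (−0.11 in each), and Mif with a filter of 100 counts, by DESeq2 (−0.13 in each) and without replicate 3 (−0.16). In replicates 1, 3 and 4 no member was called under any alternative, but the background depended on the setting. DESeq2 called 13 genes in place of 68 in replicate 1 and 15 in place of 108 in replicate 3, a filter of 100 counts 20 in replicate 3, and no filter 70 in place of 9 in replicate 4. With replicate 2 added to the reference, edgeR called 0 genes in each, with 166, 257 and 128 at an unadjusted p under 0.05. With that reference, which then holds the deviating library, the members' values shifted too: Egln3 reached 0.48 in replicate 4, and Ankrd37 in replicate 3 turned from −0.20 to 0.14, uncalled in both. The cause of the other differences was not tested. Leaving out 1 of these 3 libraries leaves no residual degrees of freedom and was not run. Mean levels over protein-coding genes alone moved by more than 1 SD for Egln2 (75.6 TPM) and Hif1an (37.9). Without length correction Hif1an took the place of Ankrd37 in the order. With ACGTG alone 6 of 9 genes had a match in at least 1 window, while 19.6% of all windows had one, again in unlike units. With a pseudocount of 1 TPM 3 of the 5 nearest genes remained for Hif1a and for Bnip3.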
